A study of Homo sapiens with 6 samples.

Results

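Caspases are the cysteine proteases that carry out apoptosis and inflammatory cell death, and APAF1 is the scaffold of the apoptosome on which caspase-9 is activated. Values were examined for 8 genes, chosen by symbol from the 19470 genes of the count table: the initiator caspases CASP2, CASP8, CASP9 and CASP10, the executioner caspase CASP6, the inflammatory caspases CASP1 and CASP4, and APAF1. The samples were 6 RNA-seq libraries of HCCC9810, an established human cholangiocarcinoma (CCA) cell line of wild type genotype, 3 from cells exposed for 24 h to isolinderalactone (ILL), a plant sesquiterpene lactone, at 20 μM and 3 from cells given DMSO vehicle for 24 h. HCCC9810 is 1 cell line, and the labels do not say whether replicates were separate cultures, so p-values measure the spread between these libraries, which may be technical. All 8 genes passed the filter on low counts and were among the 13066 genes tested.

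Caspases are made as inactive proenzymes. Initiators are activated when they are brought together on a platform: the apoptosome of APAF1 and cytochrome c for caspase-9, the PIDDosome of PIDD1 and CRADD for caspase-2, and the death receptor complex with FADD for caspases 8 and 10. Initiators cleave the executioners, while caspases 1 and 4 mature interleukins and cleave gasdermins, the pore formers of pyroptosis. The amount of mRNA does not report this cleavage, which was not analysed here.

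Among the 8 genes, CASP1, CASP4 and CASP9 rose with ILL by between 2.11-fold and 2.91-fold, and CASP2 fell to 0.493-fold. The other 4 genes differed by at most 0.33 on the log2 scale. The study's criteria for a differentially expressed gene (DEG) were a fold change above 2 or under 0.5 with adjusted p under 0.05. By these 4 of the 8 were DEGs, against 23.9% of all tested genes. By the adjusted p-value alone all 8 were called, 4 higher and 4 lower, against 73.1% of all tested genes, and in 7 of the 8 the libraries of the groups did not overlap, against 75.4%. The median log2 fold change of the 8 genes was 0.08, beside -0.0012 over all tested genes. Only 5 of the 8 were called by the adjusted p-value without control replicate 1, control replicate 3 or ILL replicate 3, while CASP1, CASP2, CASP4 and CASP9 were called in each of these fits. In bulk RNA, a change in the number of cells of a state and a change in RNA per cell cannot be told apart.

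**Figure D1:**
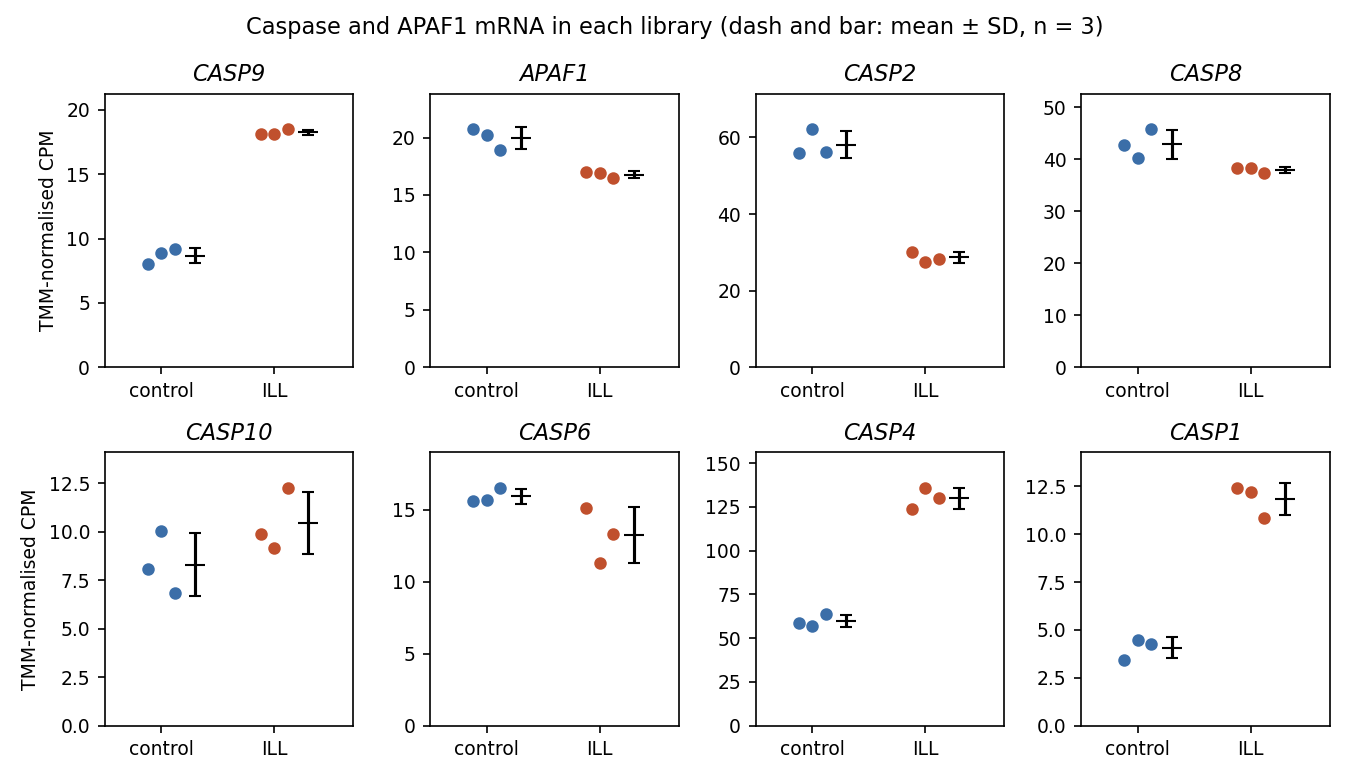
Each panel plots 1 gene in TMM-normalised CPM (vertical axis from 0) for the 3 control and 3 ILL libraries, with the mean and SD of each group beside the points. CASP9, CASP4 and CASP1 are higher in every ILL library than in every control library, CASP2 is lower in every ILL library, and the CASP10 groups overlap.

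Total counts ranged from 34282764 to 37758569 per library, and CPM are counts per 1000000 counts of the library, scaled by edgeR's TMM factors unless stated. Fold changes, with their standard errors (SE) and 95% intervals, come from edgeR's quasi-likelihood test, and p-values were adjusted by the Benjamini-Hochberg method over all tested genes. All 6 of 6 cholangiocyte markers, keratins, EPCAM and SOX9, were tested, and their summed level was 9024 to 9206 CPM in controls and 8319.7 to 8747 CPM with ILL, without TMM scaling. Within this sum all 6 were called, KRT7 (0.64) and EPCAM (0.24) higher and KRT18 (-0.82), SOX9 (-0.56), KRT19 (-0.18) and KRT8 (-0.16) lower. On the same scale 3 hepatocyte markers summed to 5.63 to 8.70 and 6.65 to 16.5 CPM, and 3 fibroblast markers to 9.85 to 12.4 and 12.8 to 16.5 CPM. Same-group libraries were not duplicates of each other, since their chi-square per degree of freedom was 5.09 to 11.5.

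The start regions are shown for CASP9, CASP4 and CASP2, the DEGs among the 8 with an entry in the table of RefSeq starts. CASP9 and CASP2 each had another entry further downstream, and only the upstream one is printed. Which start these cells used was not tested. Entries on GRCh38.p14 were matched for 6 of the 8 genes, as 10 start regions of 300 bases (250 before the start and 50 after it). Each is printed 5′ to 3′ on the strand of the gene, and capitals mark GC boxes (GGGCGG or CCGCCC) and CCAAT boxes (CCAAT or ATTGG).
CASP9, chr1:15524741-15525040, minus strand: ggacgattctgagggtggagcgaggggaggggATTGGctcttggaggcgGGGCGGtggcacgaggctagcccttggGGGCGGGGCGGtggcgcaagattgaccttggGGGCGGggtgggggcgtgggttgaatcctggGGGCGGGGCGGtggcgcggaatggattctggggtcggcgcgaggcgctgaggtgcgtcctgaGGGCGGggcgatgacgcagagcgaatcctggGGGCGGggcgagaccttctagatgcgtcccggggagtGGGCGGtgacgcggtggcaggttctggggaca
CASP4, chr11:104968525-104968824, minus strand: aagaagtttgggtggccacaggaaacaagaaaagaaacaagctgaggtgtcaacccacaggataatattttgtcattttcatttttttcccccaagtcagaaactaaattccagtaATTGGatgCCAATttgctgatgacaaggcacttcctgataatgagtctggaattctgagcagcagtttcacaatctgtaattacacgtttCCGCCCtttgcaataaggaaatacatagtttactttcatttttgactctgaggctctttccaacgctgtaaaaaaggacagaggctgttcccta
CASP2, chr7:143288101-143288400, plus strand: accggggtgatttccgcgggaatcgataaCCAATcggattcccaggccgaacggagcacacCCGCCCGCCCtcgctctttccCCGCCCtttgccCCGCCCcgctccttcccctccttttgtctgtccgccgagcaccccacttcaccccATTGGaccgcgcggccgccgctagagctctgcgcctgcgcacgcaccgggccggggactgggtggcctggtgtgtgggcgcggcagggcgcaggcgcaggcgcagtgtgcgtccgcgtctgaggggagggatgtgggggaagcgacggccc
The upstream CASP9 region held 9 GC boxes, all on the forward strand, and 1 CCAAT box, and was 71.3% G or C, while the other CASP9 region held 8 at 76.0%. The CASP2 region, also 71.3% G or C, held 4 GC boxes, all on the reverse strand, and 2 CCAAT boxes, while the other CASP2 region was 43.0% G or C and held neither box. In contrast, the CASP4 region was 39.7% G or C with 1 GC box and 2 CCAAT boxes. GC boxes occurred in 45.0% and CCAAT boxes in 34.6% of all 35116 start regions of this length, whose median G or C content was 58.7%. None of these 3 regions held TATAAA on either strand, which 11.5% of all regions did.

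In the apoptosome, the mRNA of the protease and that of its scaffold moved in opposite directions. CASP9, the initiator of the mitochondrial pathway, was at 8.01, 8.85 and 9.16 CPM in the control libraries and at 18.2, 18.1 and 18.5 CPM in the ILL libraries. All ILL libraries lay above all controls, and their log2 fold change was 1.08 (SE 0.11, 95% interval 0.85 to 1.30, edgeR adjusted p = 2.7e-09). APAF1, which oligomerises with cytochrome c to recruit caspase-9, was at 20.7, 20.3 and 18.9 CPM in controls and at 17.0, 16.9 and 16.4 CPM with ILL. The groups did not overlap, and the log2 fold change of -0.25 (SE 0.09, edgeR adjusted p = 0.0166) was well inside the fold cutoff. Without control replicate 1 it was -0.23 and was not called (edgeR adjusted p = 0.0617). In FPKM, which is per length, the ratio of CASP9 to APAF1 was 0.737, 0.833 and 0.923 in controls and 2.04, 2.04 and 2.15 with ILL. This is 2.50 times the control ratio, and an exact two-sided permutation test gave p = 0.1, the smallest that 3 libraries against 3 allow (adjusted p = 0.133 over the 4 ratios computed, exact test).

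Of the 7 tested genes in a list of apoptosome and mitochondrial partners, 1 was called higher by the adjusted p-value and 5 were called lower, against 36.2% higher and 36.9% lower over all tested genes. Its median was -0.22 on the log2 scale. Of the 5 lower genes, AIFM1 (-0.16) and HTRA2 (-0.16) were not called without ILL replicate 1, nor HTRA2 (-0.16) without control replicate 1. ENDOG, at -0.17, was not called without control replicate 1 (-0.16), control replicate 3 (-0.18), ILL replicate 2 (-0.15) or ILL replicate 3 (-0.16), nor by DESeq2 (adjusted p = 0.0616). CYCS, which encodes cytochrome c, was the 1 DEG of the list. It was at 522, 514 and 441 CPM in controls and 261, 218 and 249 CPM with ILL, a log2 fold change of -1.02 (SE 0.07, edgeR adjusted p = 6.2e-13). XIAP, an inhibitor that binds caspase-9, rose by 0.52 in log2 (SE 0.07, edgeR adjusted p = 1.5e-07). DIABLO, whose product displaces XIAP from caspases, was at 38.6 ± 2.77 CPM (SD, n = 3) in controls and 35.9 ± 1.19 CPM (SD, n = 3) with ILL and did not pass the test (95% interval of the log2 fold change -0.25 to 0.05), but it was called lower with library size only (-0.17, edgeR adjusted p = 0.0376) and in the filtered limma fits (-0.16 and -0.17).

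The initiator of the PIDDosome fell, and so did the scaffold gene PIDD1. CASP2 was at 55.8, 62.2 and 56.2 CPM in controls and at 30.2, 27.5 and 28.3 CPM with ILL. Every ILL library lay below every control, with a log2 fold change of -1.02 (SE 0.07, 95% interval -1.16 to -0.87, edgeR adjusted p = 2.7e-12). The interval spans the fold cutoff, and the value was -0.97 without control replicate 2 and -0.99 without ILL replicate 2, where CASP2 was no longer a DEG. PIDD1, the sensor subunit, had 597, 573 and 523 counts in controls and 144, 243 and 199 with ILL, a log2 fold change of -1.46 (SE 0.15, edgeR adjusted p = 3.2e-09). The adaptor CRADD, with 52 to 102 counts per library, did not pass the test, and its 95% interval of -0.25 to 1.02 includes changes of either sign.

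The changes of CASP8 and CASP10, neighbours on chromosome 2, were small and depended on single libraries, while CFLAR, beside them, rose. CASP8, the initiator of death receptor signalling, was at 42.7, 40.2 and 45.8 CPM in controls and at 38.3, 38.3 and 37.3 CPM with ILL. The log2 fold change was -0.18 (SE 0.07, 95% interval -0.32 to -0.03, edgeR adjusted p = 0.0247), and it was not called without control replicate 3 (-0.13, adjusted p = 0.122) or without ILL replicate 3 (-0.16, adjusted p = 0.0714). CASP10, the paralogue that joins the same complex, was at 8.09, 10.02 and 6.81 CPM in controls and at 9.88, 9.18 and 12.3 CPM with ILL. Its groups overlapped, and the log2 fold change of 0.33 (SE 0.15, edgeR adjusted p = 0.0479) lay just under the threshold. Across the fits that left out 1 library it was between 0.20 and 0.48. It was not called without ILL replicate 3 (0.20, edgeR adjusted p = 0.279) or control replicate 3 (0.21, edgeR adjusted p = 0.237). Nor was it called without control replicate 1 (0.31, edgeR adjusted p = 0.106) or ILL replicate 1 (0.37, edgeR adjusted p = 0.0571). DESeq2 did not call it (adjusted p = 0.0751).

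CFLAR encodes c-FLIP, the protease-dead relative of caspase-8 that competes for its place in the complex. It was at 51.0, 50.2 and 53.4 CPM in controls and at 104, 112 and 109 CPM with ILL, a log2 fold change of 1.07 (SE 0.06, edgeR adjusted p = 2.9e-14). The FPKM ratio of CASP8 to CFLAR went from 5.28, 5.05 and 5.40 in controls to 2.32, 2.15 and 2.15 with ILL, 2.38 times lower, with no overlap (exact permutation p = 0.1, adjusted p = 0.133 over 4 ratios). Its absolute value depends on the gene length behind the deposited CFLAR values, which comes to 18974 bases against 3010 for CASP8, while the change between groups does not. The FPKM ratio of CASP8 to CASP10 overlapped between the groups (exact permutation p = 0.2, adjusted p = 0.2 over 4 ratios). In the list of activation platforms, 2 of 6 tested genes were called higher by the adjusted p-value, CFLAR and the kinase gene RIPK1 at 0.65, and 1 lower, PIDD1, shares near or below the 36.2% and 36.9% over all tested genes. FADD, the adaptor of the death receptor complex, had a 95% interval of -0.24 to 0.06, and BID, which caspase-8 cleaves to signal to mitochondria, one of -0.04 to 0.25.

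**Figure D2:**
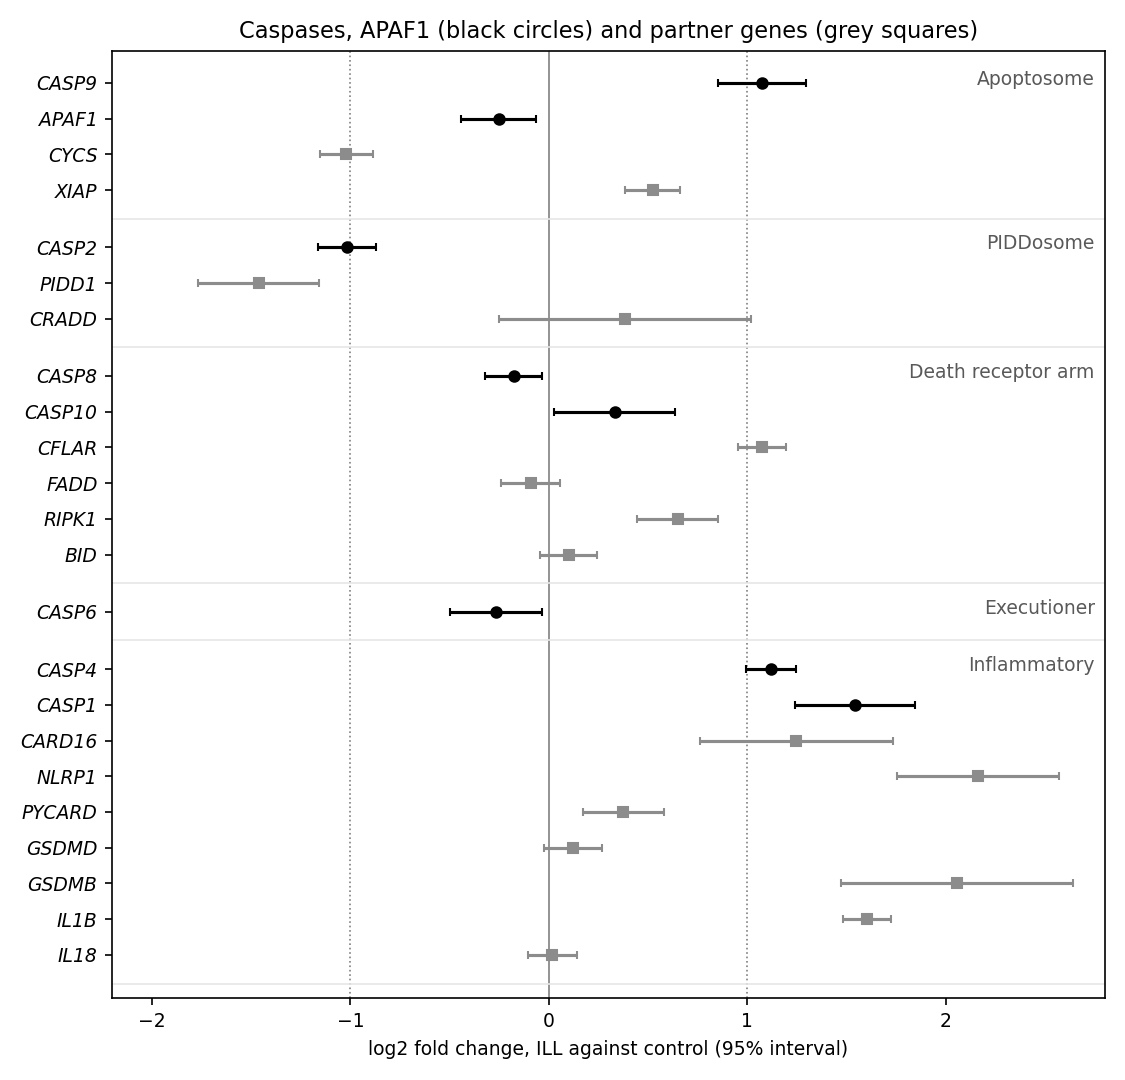
Points are log2 fold changes of ILL against control with 95% intervals (horizontal axis), black circles for the 8 genes and grey squares for partner genes, grouped by platform, and dotted lines mark fold changes of 2 and 0.5. The partner genes drawn are a selection from the lists. Left out of the inflammatory group are the lower DEG NLRP3 (-3.37), the uncalled GSDMC, and GSDME, NINJ1 and CARD8, which were called higher. CASP9 and CFLAR lie near 1.08 and 1.07, and CASP2 and CYCS near -1.02. Among the 8 genes, the intervals of CASP10, CASP8, CASP6 and APAF1 reach close to 0.

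CASP6, an executioner that cleaves lamin A, was at 15.6, 15.7 and 16.5 CPM in controls and at 15.1, 11.3 and 13.3 CPM with ILL. The ILL libraries lay below the controls but were spread more widely, and the log2 fold change was -0.27 (SE 0.11, 95% interval -0.50 to -0.03, edgeR adjusted p = 0.0366). The call was lost in 5 of the 6 fits that left out 1 library, with -0.16 and an adjusted p of 0.2 without ILL replicate 2, and under DESeq2 (adjusted p = 0.067). CASP6 overlaps MCUB on the opposite strand and shares 2.83% of its 50-base words with it. MCUB fell by 0.71 on the log2 scale, and whether the counting used strand is not given in the sources used here, so the part of MCUB reads in the CASP6 value was not tested.

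The inflammatory caspases rose together. CASP4, the receptor and protease for cytosolic lipopolysaccharide, was at 58.8, 56.9 and 63.7 CPM in controls and at 123.6, 136.0 and 129.9 CPM with ILL. The groups were far apart, with a log2 fold change of 1.12 (SE 0.06, 95% interval 0.99 to 1.24, edgeR adjusted p = 2.2e-14). CASP1, the protease of the inflammasome that matures interleukins 1β and 18, was at 3.45, 4.50 and 4.27 CPM in controls and at 12.4, 12.2 and 10.9 CPM with ILL. It had the largest change of the 8 genes, with a log2 fold change of 1.54 (SE 0.15, 95% interval 1.24 to 1.84, edgeR adjusted p = 1.0e-09). The FPKM ratio of CASP1 to CASP4 was between 0.0334 and 0.0450 in controls and between 0.0476 and 0.0572 with ILL, without overlap (exact permutation p = 0.1, adjusted p = 0.133 over 4 ratios).

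CASP1 and CASP4 lie in one cluster on chromosome 11 of GRCh38, CASP4 from 104942866 to 104969436 and CASP1 from 105025443 to 105035250. The 1 other tested gene within 250 kb of either was CARD16, which encodes a protein made of a caspase-1-like CARD domain. It had 72, 99 and 60 counts in controls and 170, 159 and 197 with ILL, a log2 fold change of 1.25 (SE 0.24, edgeR adjusted p = 4.7e-05). CASP1 shares 4.37% of its 50-base words with CARD16, so reads of these genes may be split uncertainly. CARD17 and CARD18 had at most 6 counts in any library and were not tested. In the chromosome 2 cluster, CASP10 (201182881 to 201229406) lies between CFLAR (201116104 to 201176687) and CASP8 (201233443 to 201287711), and of the 6 tested neighbours of CASP8, 3 were called higher by the adjusted p-value and 1 lower, against 36.2% and 36.9% over all tested genes.

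**Figure D3:**
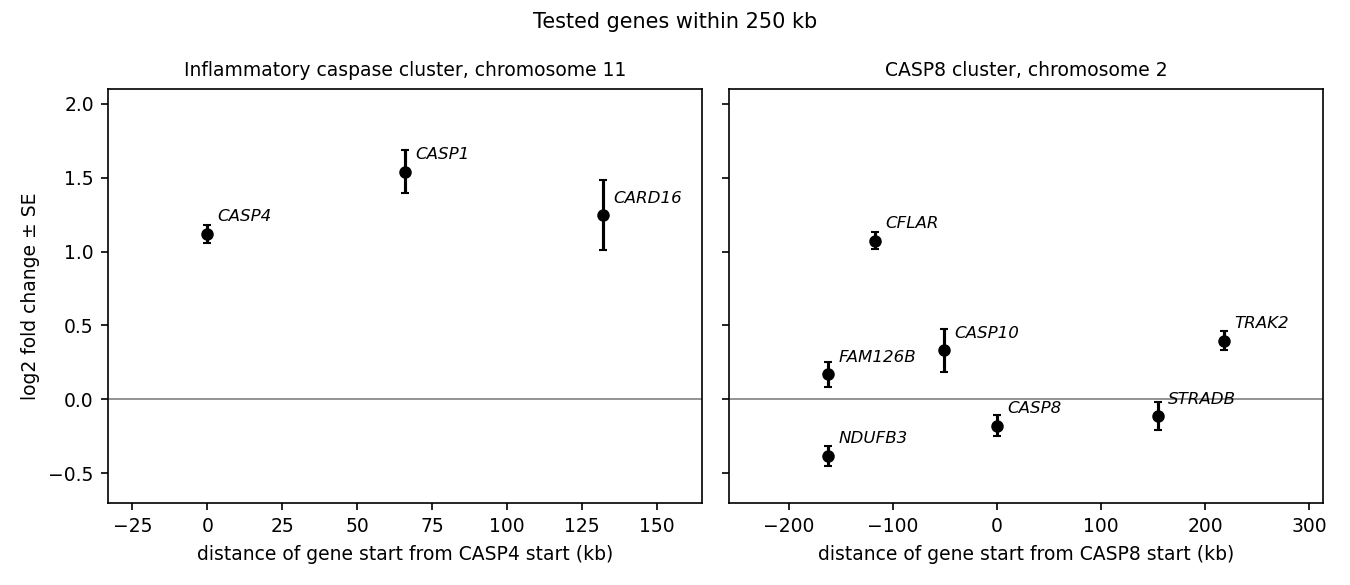
Log2 fold changes of ILL against control with standard errors (vertical axis) for tested genes within 250 kb of CASP4 (left) and CASP8 (right), placed by the distance of their annotated starts in kb. All 3 genes of the CASP4 cluster lie above 1, whereas the CASP8 cluster runs from -0.38 at NDUFB3 to 1.07 at CFLAR.

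Near the other members, APAF1 and IKBIP are annotated head to head 28 bases apart, and IKBIP fell by 1.29 in log2 (SE 0.10, edgeR adjusted p = 3.1e-11). Against the same shares over all tested genes, 36.2% higher and 36.9% lower, all 3 tested neighbours of APAF1 were called lower, the others being TMPO at -2.57 and SLC25A3 at -0.48. Near CASP9, 3 of 8 tested neighbours were called higher and 3 lower. DNAJC16 had a log2 fold change of 0.31 that was not called without control replicate 2 (0.23) or ILL replicate 3 (0.23). It starts 279 bases from the GENCODE start of CASP9 (15526534), which lies upstream of both RefSeq start regions of CASP9 and so nearer to DNAJC16. Near CASP2, 4 of 5 were called higher and 1, TMEM139, lower at -0.49. ANKS1B overlaps APAF1 on the opposite strand and shares 8.61% of its 50-base words, but it had at most 2 counts in any library, and CELA2B, which overlaps CASP9, had 0 counts.

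In a list of 19 inflammasome and pyroptosis genes, 12 were tested. Of these 12, 8 were called higher by the adjusted p-value and 1 lower, against 36.2% and 36.9% over all tested genes. Their median log2 fold change was 0.54. The sensor genes NLRC4, AIM2, MEFV and NAIP had at most 9 counts in any library and were not tested. The DEGs higher with ILL were 4, 33.3% of those tested against 12.5% of all tested genes. Because the list was written with earlier results of these data known, this share is a description and not a test. NLRP1, a sensor that activates caspase-1, had 62, 76 and 109 counts in controls and 344, 399 and 320 with ILL, a log2 fold change of 2.16 (SE 0.20, edgeR adjusted p = 5.1e-10). GSDMB, a gasdermin with few counts, had 48, 31 and 29 in controls and 163, 127 and 138 with ILL, a log2 fold change of 2.06 (SE 0.28). IL1B, which encodes the caspase-1 substrate interleukin 1β, rose by 1.60, and CARD16 is the fourth. PYCARD, the adaptor ASC that links sensors to caspase-1, rose by 0.38 (edgeR adjusted p = 0.00159) and was not a DEG.

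The sensor gene NLRP3 was the 1 DEG lower with ILL, at 40, 20 and 41 counts in controls and 6, 1 and 2 with ILL, and its log2 fold change of -3.37 (SE 0.66) ranged from -4.31 (without ILL replicate 1) to -2.97 when 1 library was left out. Other substrates of the inflammatory caspases did not pass the test. GSDMD, the pore former that both caspases cleave, had a 95% interval of -0.02 to 0.27 and was called without ILL replicate 1 (0.18, edgeR adjusted p = 0.0419), and IL18 was at 121 ± 4.64 CPM (SD, n = 3) in controls and 123 ± 9.23 CPM (SD, n = 3) with ILL (interval -0.10 to 0.14). CASP1, NLRP1 and IL1B are also expressed in leukocytes. The summed level of 4 leukocyte markers was 38.3 to 42.4 CPM in controls and 111 to 115 CPM with ILL, almost all of it CD68, a lysosomal protein of many cell types, at 1285 to 1445 and 3882 to 4029 counts. LYZ, at 52, 37 and 24 counts in controls and 54, 60 and 70 with ILL, did not overlap in CPM and did not pass the test (log2 fold change 0.78, edgeR adjusted p = 0.0578). The defining markers PTPRC and CD3E were at 9 counts or fewer in every library. The part of leukocyte RNA in these results was not tested.

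Among 12 caspase substrates and downstream effectors, 4 were called higher by the adjusted p-value, 5 were called lower and 3 did not pass, near the 36.2% and 36.9% over all tested genes, with a median of -0.10. LMNB1, which encodes lamin B1, fell by 3.08 on the log2 scale, PARP1, a DNA repair enzyme that executioners cleave, by 1.76, and DFFB, the caspase-activated DNase, by 1.07. DFFA, the inhibitor that executioners cut to release this nuclease, had a log2 fold change of -0.90. GSN, which encodes the actin-severing protein gelsolin, was the 1 DEG higher, with a log2 fold change of 2.13 (SE 0.06, edgeR adjusted p = 1.8e-19).

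Per length, CASP4 was the most abundant of the 8 mRNAs, at 44.5 ± 2.44 FPKM (SD, n = 3) in controls and 92.1 ± 3.84 FPKM (SD, n = 3) with ILL. In controls it was followed by CASP8 at 14.6 and CASP2 at 14.1 FPKM, whose libraries overlapped, then by CASP6 at 9.99, APAF1 at 2.72, CASP9 at 2.25, CASP1 at 1.72 and CASP10 at 1.27 FPKM. The last of these overlapped with CASP1. With ILL the order below CASP4 was CASP8 at 12.3, CASP6 at 7.92, CASP2 at 6.63, CASP1 at 4.77, CASP9 at 4.53, APAF1 at 2.18 and CASP10 at 1.53 FPKM, where CASP6 overlapped with CASP2 and CASP1 with CASP9. In FPKM, CASP1 and CASP9 thus stood below APAF1 in controls and above it with ILL. In CPM with ILL, the mean of CASP9 (18.3) was above that of APAF1 (16.8), but that of CASP1 (11.8) was below it. The order within a group depends on the gene lengths behind the deposited FPKM, such as 1376 bases for CASP4 and 4219 for CASP2. In CPM, the control means of CASP4 and CASP2 were 59.8 and 58.1.

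The inflammatory caspases made up 52.2% ± 1.16 (SD, n = 3) of the summed FPKM of the 7 caspase genes in controls and 74.6% ± 1.73 (SD, n = 3) with ILL. The 4 initiators made up 36.5% ± 1.11 (SD, n = 3) in controls and 19.3% ± 0.71 (SD, n = 3) with ILL. The sum itself was 88.4 ± 2.88 FPKM in controls and 129.7 ± 2.05 FPKM with ILL (SD, n = 3 each), and CASP4 alone was 50.3% of it in controls and 70.9% with ILL. All of these shares depend on the same gene lengths, which give short genes such as CASP4 more weight than in CPM. In control CPM the initiators CASP2 and CASP8 had means of 58.1 and 42.9, and the inflammatory CASP4 and CASP1 59.8 and 4.07. By CPM the inflammatory caspases were thus the smaller class in controls.

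The genes with profiles nearest to CASP1, the member with the largest change, over the 6 libraries were AGO4, JAG1 and LTBP1. Their log2 CPM, each centred on its own mean, differed from that of CASP1 by a root mean square of 0.050, 0.063 and 0.070, and their log2 fold changes were 1.51, 1.43 and 1.59. The measure is dominated by the group difference and describes likeness only.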

How the data were processed

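RNA-seq libraries of HCCC9810 cells, 3 with ILL and 3 with vehicle, were mapped to groups and replicate numbers by their titles. The authors deposited raw counts per gene symbol and FPKM values. The deposited FPKM follow from the counts, the library totals and 1 length per gene for 100% of 88055 nonzero values within 0.1%. The submitters' processing notes name GRCh38 and DESeq2, and the aligner, counting program and annotation are not given in the sources used here. DESeq2 with a q-value under 0.05 and a fold change cutoff was the study's own test.

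Counts were filtered with filterByExpr, normalised by TMM and tested with edgeR's quasi-likelihood test (edgeR 4.0.16, R 4.3.3) without covariates. The common biological coefficient of variation was 0.0717. Standard errors are the log2 fold change divided by the square root of F. The script was tested on simulated data. Ratios were tested with exact two-sided permutation tests. Genes with few counts carry more counting error. The 8 genes and all lists were written by hand with earlier results of these data known, and no list was tested as a set. Some items are not reported here. Named genes are the 8, up to 3 DEGs per direction in a list, CFLAR, tested genes within 250 kb, and the 3 nearest profiles of the member with the largest change. Genes outside this rule, such as XIAP, PYCARD and IL18, were named after their values were seen, for their roles. Gene positions are from GENCODE release 29 (GRCh38) and start regions from RefSeq (GRCh38.p14). Shared words are 50-base sequences of GENCODE transcripts found on either strand of another gene's transcripts. Alternatives were edgeR with DESeq2 size factors, library size only, other filters, DESeq2 1.42.0, a replicate block, each library left out, and limma 3.58.1 on log2(FPKM + 1) or log2(FPKM + 0.1), with a mean FPKM of at least 1 or no filter.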

Additional observations from a re-analysis of the deposited data

How the results depend on the processing

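CASP1, CASP2, CASP4 and CASP9 kept their direction and an adjusted p under 0.05 in all 15 alternatives, and none of the 8 genes reversed. The count of the 8 called by adjusted p was 5 to 7 over the fits that left out 1 library, against 8, with 5 without control replicate 1, control replicate 3 or ILL replicate 3. The count of DEGs among them was 2 with limma on log2(FPKM + 1), with or without the filter on mean FPKM, against 4, and over the whole table such DEGs numbered 1591 and 1609 against 3120. The lost genes were CASP9, at 0.76, and CASP2, at -0.98, whose value of -1.02 lay just past the fold cutoff. A pseudocount shrinks changes by construction, those of low genes most. CASP9 had 0.98 with limma on log2(FPKM + 0.1), again under the fold cutoff. CASP10 was not called with library size only, DESeq2 or any limma fit. The median over all genes was -0.070 without TMM factors and -0.086 and -0.10 in the filtered limma fits. Of DEGs, 42.0% were higher with filtered limma on log2(FPKM + 1), against 52.4%.

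Deviations of same-numbered libraries correlated at 0.0067, -0.020 and -0.060, and those of differently numbered libraries at -0.059 to 0.072. These values cannot decide whether same-numbered libraries were handled together, which the labels do not say. With the replicate block all 8 genes were called and 4 were DEGs, as without it, and 9437 genes were called over the table against 9547.

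Uncalled values near 0 changed sign for 3 genes. IL18 was at -0.051 with library size only, -0.053 in each limma fit, and from -0.030 to 0.076 without 1 library. PAK2 was at 0.0063, 0.0080 and 0.0027 with DESeq2 size factors, at least 10 counts and DESeq2, and from -0.039 to 0.027 without 1 library, and GSDMC from -0.21 to 0.053. Depth limits NLRP3, GSDMB and the untested CARD17, CARD18, NLRC4, AIM2, MEFV and NAIP.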
